A study of Mus musculus with 4 samples.

Results

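The genes described here are 10 imprinted genes of the mouse, chosen by symbol from 55401 genes in the count table: the non-coding RNA genes Meg3, Rian, Mirg, H19 and Kcnq1ot1 and the protein-coding genes Dlk1, Igf2, Peg3, Peg10 and Grb10. All 10 were found, 7 had enough counts to be tested, and the other 3 (Dlk1, H19 and Igf2) did not. What was measured is RNA that had taken up 4-thiouridine (4sU), which cells build into RNA in place of uridine while it is made, so that the captured RNA is enriched for recent transcription. The cells were embryonic stem cells of the line 129/Ola, grown in serum with leukemia inhibitory factor, and their SNRNP70, a protein specific to the U1 snRNP, which recognises 5′ splice sites, carried a degron that auxin activates. There were 2 libraries after 5 h of the auxin IAA (genotype label "SNRNP70 degration") and 2 at 0 h (genotype label "WT", although their titles name the same degron line), so the degron is carried by the cells of both groups. The labels give no number of clones, no cells without the degron that received auxin, no labelling time and no spiked-in RNA.

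An imprinted gene is transcribed mainly from the chromosome inherited from 1 parent, through DNA methylation laid down in the egg or the sperm. In the mouse, Meg3, Rian and Mirg follow each other on the maternal copy of the Dlk1-Dio3 domain and are thought to be parts of a very long transcript that also carries a large group of miRNAs and C/D box snoRNAs, while Dlk1 and Dio3 are read from the paternal copy. Kcnq1ot1 is a long, unspliced paternal RNA that silences neighbours such as Cdkn1c, H19 and Igf2 share enhancers and a CTCF-bound control region, and Peg10 starts beside Sgce. The counts do not separate the parental copies, so every value is the sum of both.

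The 5 h libraries held 15645894 (replicate 1) and 10349277 counts (replicate 2), and the 0 h libraries 17752887 and 7174772. Levels are in CPM, counts relative to a common library total, scaled with edgeR's TMM factors, which set the typical gene to no change. Changes are edgeR log2 fold changes, 5 h minus 0 h, and a gene is said to have risen or fallen where the quasi-likelihood p, adjusted by Benjamini-Hochberg over all 17344 tested genes, was under 0.05. The series text calls the libraries independent replicates and the labels do not say whether they were separate cultures, so the p-values measure the spread between these samples, which may be technical. Pluripotency markers were all present (12 of 12 tested, summed level 4760 to 4860 CPM at 5 h and 4450 to 4660 CPM at 0 h). Of these 6 rose and 3 fell by edgeR, against 22.0% and 21.2% of all tested genes. The log2 change was 0.86 ± 0.10 for Sox2, 0.61 ± 0.10 for Klf4 and -0.64 ± 0.09 for Tdgf1, a Nodal co-receptor gene. Under mitochondrial scaling (to mitochondrially encoded RNA, described below) 0 markers were called higher and 8 lower, against 2.28% and 51.2% of all tested genes. Of 12 fibroblast markers, which feeder cells would bring, 5 (Col3a1, Postn, Lum, Dcn and Lox) were at 0 in every library, and the summed level was 16.4 to 17.2 CPM at 5 h and 13.9 to 14.5 CPM at 0 h. Thy1 (0.32) and Fbn1 (-0.39) did not pass. For 14 markers of differentiated cells, of which Cdx2 and Afp were at 0, the sum was 29.8 to 34.2 CPM at 5 h and 14.8 to 22.7 CPM at 0 h, and Sox1, a neural factor, was the member that rose (log2 1.46 ± 0.31, edgeR adjusted p = 0.00321, and 0.62 with 0.147 under mitochondrial scaling). The part of these markers in the results below was not tested.

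The annotated starts of the 3 long non-coding genes of the Dlk1-Dio3 domain are shown because their labelled RNA is compared piece by piece below. The windows come from RefSeq (GRCm38.p6, to which mm10 corresponds), run from 250 bases before to 50 bases after the start on the plus strand, and carry 3 motifs in capitals, searched on both strands. These are TGCCGC, the hexamer bound by the imprint-keeping protein ZFP57, GGTAAG, letters of a good 5′ splice site that U1 RNA can pair with, and TATAAA, the TATA box.
Meg3, chr12:109540746-109541045: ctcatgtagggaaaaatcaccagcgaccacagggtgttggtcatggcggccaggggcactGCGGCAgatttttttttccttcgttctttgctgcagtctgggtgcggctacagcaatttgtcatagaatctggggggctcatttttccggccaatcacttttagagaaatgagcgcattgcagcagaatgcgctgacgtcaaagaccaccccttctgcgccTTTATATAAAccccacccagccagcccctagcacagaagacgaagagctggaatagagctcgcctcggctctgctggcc
Rian, chr12:109603695-109603994: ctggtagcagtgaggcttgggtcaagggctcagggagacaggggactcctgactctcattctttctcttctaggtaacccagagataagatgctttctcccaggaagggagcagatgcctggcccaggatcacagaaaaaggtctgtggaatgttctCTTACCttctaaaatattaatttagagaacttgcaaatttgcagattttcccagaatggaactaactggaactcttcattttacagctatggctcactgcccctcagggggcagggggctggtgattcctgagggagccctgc
Mirg, chr12:109734731-109735030: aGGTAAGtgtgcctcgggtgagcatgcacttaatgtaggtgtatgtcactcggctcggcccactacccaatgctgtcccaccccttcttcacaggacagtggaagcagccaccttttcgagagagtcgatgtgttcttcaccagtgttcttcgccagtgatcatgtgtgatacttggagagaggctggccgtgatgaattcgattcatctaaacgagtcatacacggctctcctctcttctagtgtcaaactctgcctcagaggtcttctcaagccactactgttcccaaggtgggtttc
The Meg3 window holds TATAAA on both strands, as overlapping letters just before the start, and TGCCGC on the opposite strand. It has 13 CpG dinucleotides, against a median of 7 over 32851 such windows. RefSeq lists another Meg3 start, whose window (chr12:109545148-109545447, not shown) has 1 CpG and none of the 3 motifs. The Rian window has 0 CpG and holds GGTAAG on the opposite strand, and the Mirg window has 10 CpG and opens with GGTAAG on the strand of the gene. On either strand, TGCCGC is found in 11.6%, GGTAAG in 9.67% and TATAAA in 13.6% of all windows. The miRNA genes Mir668 and Mir485 lie inside the Mirg window, so small RNA genes of the domain are annotated upstream of the Mirg start as well. The annotated span of Mir668 begins at 109734732, the first letter of the GGTAAG in that window. A match is a description of the letters and not of a bound site.

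Among the 7 tested genes, Meg3, Mirg and Peg3 fell, Peg10 and Grb10 rose, and Rian and Kcnq1ot1 did not pass the test. Over all tested genes 22.0% rose and 21.2% fell, so with 7 genes these counts are not a result about imprinted genes as a class. In all 7 the libraries of the groups did not overlap, with 5 lower and 2 higher at 5 h, as they did not for 37.5% (lower) and 36.0% (higher) of all tested genes. In such bulk libraries fewer cells that use a gene and less RNA per cell cannot be told apart. The median log2 fold change of the 7 was -0.18, against -0.02 over all tested genes. The plot of levels by library shows that at 5 h the replicates lay farther apart for Rian and Mirg, relative to their means, than for Meg3.

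**Figure D1:**
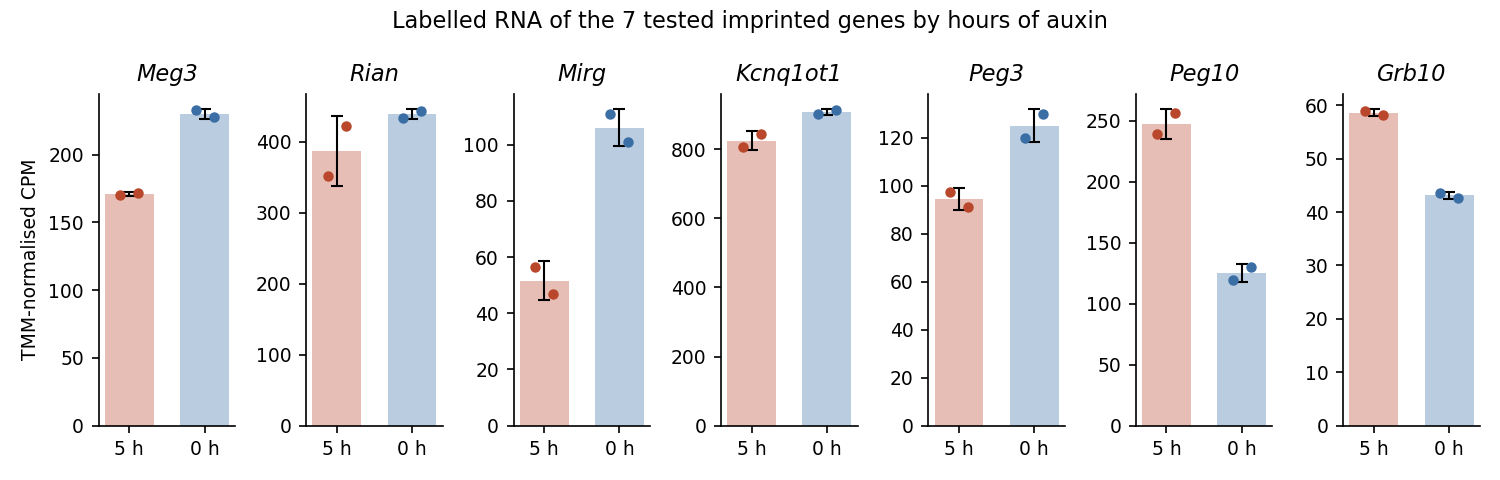
TMM-normalised CPM of the 7 tested imprinted genes at 5 h (left, red) and 0 h (right, blue) of auxin, with bars at the mean of 2 libraries, error bars of 1 SD and points for the libraries. Mirg is lower (51.6 against 106 CPM) and Peg10 higher (247 against 125 CPM) at 5 h, and Rian and Kcnq1ot1 differ least.

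Meg3, a maternally expressed non-coding RNA gene on chromosome 12 from 109540996 to 109571729 (mm10), had 170 and 172 CPM in the 5 h libraries and 233 and 228 CPM in the 0 h libraries. Both 5 h libraries lay below both 0 h libraries, and the replicates of each group differed little. Its mean was 171 ± 1.73 CPM at 5 h and 230 ± 3.52 CPM at 0 h (SD, n = 2 each). The log2 fold change was -0.43 ± 0.09 (SE, edgeR adjusted p = 0.00292), and 32.7% of tested genes had a lower value. The 3761 tested genes with a span of 20 to 50 kb, the class of Meg3 (30.7 kb), had a median of -0.21. Of these 18.8% rose and 31.5% fell.

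Rian, the next gene downstream and host of C/D box snoRNAs, begins 62.9 kb after the Meg3 start and spans 109603945 to 109661716. It had 352 and 422 CPM in the 5 h libraries and 434 and 444 CPM in the 0 h libraries. The 5 h libraries lay lower but far apart, with replicate 2 close to the 0 h values. Its log2 fold change of -0.18 ± 0.10 did not pass (edgeR adjusted p = 0.168). Without 5 h replicate 2 it was -0.30 with adjusted p = 0.00797, and without 5 h replicate 1 it was -0.06, so a single library decided this call.

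Mirg, the most distal of the 3, begins 194 kb after the Meg3 start, spans 109734981 to 109749458 and hosts miRNAs. It had 56.6 and 46.7 CPM in the 5 h libraries and 111 and 101 CPM in the 0 h libraries. Every 5 h value was well under every 0 h value. The means were 51.6 ± 6.97 CPM at 5 h and 106 ± 6.59 CPM at 0 h (SD, n = 2 each), and the log2 fold change of -1.03 ± 0.13 passed (edgeR adjusted p = 0.000128). It was 0.488-fold, and 14.1% of tested genes had a lower value. The 4657 tested genes with a span of 5 to 20 kb, the class of Mirg (14.5 kb), had a median of -0.00, and the 808 tested genes annotated as lncRNA had a median of -0.17, with 13.1% higher and 17.1% lower.

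Ratios between genes of the same library do not depend on how libraries are scaled, and they set the 3 parts of the domain against each other. The log2 ratio of Mirg to Rian counts was -2.64 and -3.17 in the 5 h libraries and -1.97 and -2.13 in the 0 h libraries. Mirg made up less of the pair at 5 h in both libraries, by 0.85 on the log2 scale (0.553-fold). The log2 ratio of Mirg to Meg3 was -1.59 and -1.88 in the 5 h libraries and -1.07 and -1.17 in the 0 h libraries. This ratio was lower at 5 h by 0.61 on the log2 scale. The log2 ratio of Rian to Meg3 was 1.05 and 1.29 at 5 h and 0.90 and 0.96 at 0 h, a difference of 0.24. For Rian and Meg3 the nearest libraries of the groups lay close together. With 2 libraries against 2 a two-sided exact permutation test cannot go below p = 0.333, which all 3 ratios reached (0.389 after Benjamini-Hochberg adjustment over 7 ratios), so the permutation test cannot show that the pieces differ.

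**Figure D2:**
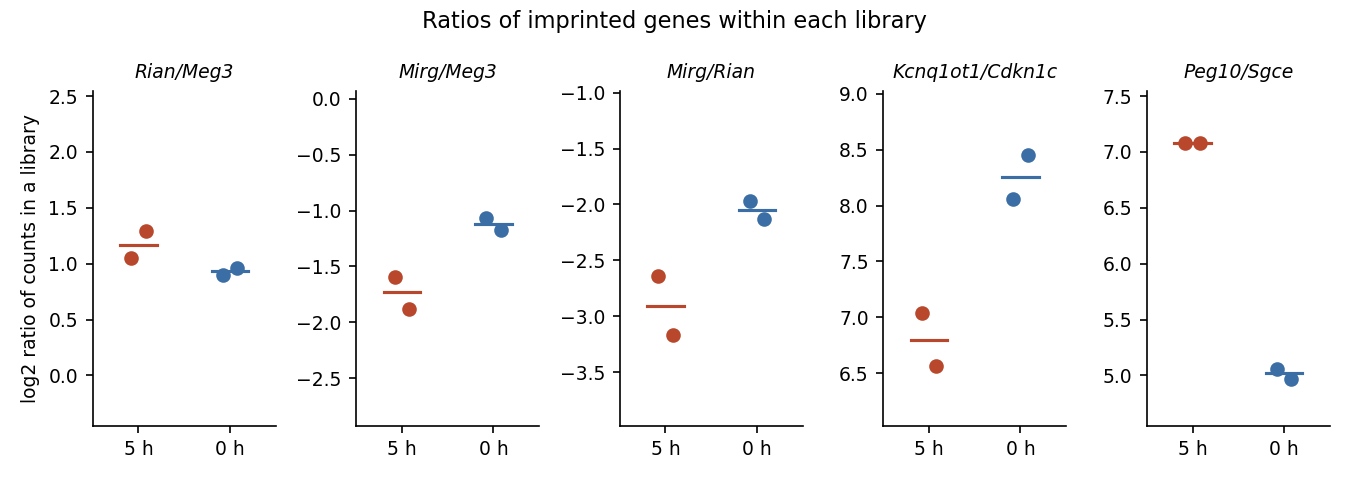
Log2 ratio of the counts of 2 genes within each library at 5 h (left, red) and 0 h (right, blue), with points for libraries and lines at the mean of 2. Every panel spans 3 log2 units. Mirg/Rian is lower at 5 h (-2.91 against -2.05) and Peg10/Sgce is higher (7.08 against 5.02).

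The small RNA genes annotated along the domain give a second reading. It cannot be taken as independent of the first, since labelled RNA of the host transcript can be counted over them. Between the Meg3 start and the Mirg end, 208 kb apart, the table lists 60 miRNA genes and 13 snoRNA genes, of which 69 of 73 had a count. Their counts are low and may share reads with any host that spans them. Of these genes 9 were listed at 1 count in each of the 4 libraries, and 9 miRNA genes passed the filter. The mature sequences of these 9 are shown to identify them, from RefSeq, with the seed (bases 2 to 8) in capitals and the 5p arm where both arms exist.
Mir493: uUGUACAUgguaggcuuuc
Mir3070a and Mir3070b: aGCCCCUGaccuugaaccuggga
Mir433: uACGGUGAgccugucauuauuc
Mir679: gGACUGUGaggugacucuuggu
Mir1193: uGGUAGACcggugacguaca
Mir666: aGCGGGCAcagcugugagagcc
Mir376c: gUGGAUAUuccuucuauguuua
Mir453: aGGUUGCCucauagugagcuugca
Mir3070a and Mir3070b share the same 5p sequence and therefore the seed, and the other 5p arms each have a seed of their own. What was counted is labelled RNA over the gene and not the mature miRNA.

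A gene passes the filter when the libraries of either group are high enough. Several of the 9, among them Mir679 and Mir493, were well above their 5 h level at 0 h, while Mir382, with 0.621 and 0.648 CPM at 5 h and 0.772 and 0.509 CPM at 0 h, was not tested. The direction of the 9 is therefore partly set by the filter and is given as a description. Summed without a filter, all 60 miRNA genes of the domain had 17.3 and 13.2 CPM in the 5 h libraries and 27.2 and 28.4 CPM in the 0 h libraries (log2 ratio -0.86). Mir679, 175 kb from the Meg3 start, fell (7 and 4 counts at 5 h and 39 and 15 counts at 0 h, log2 -2.07 ± 0.74, edgeR adjusted p = 0.0432). That call was lost with a replicate block (adjusted p = 0.0893), by DESeq2 (0.117), by limma-voom (0.0563) and without each library in turn (0.0773 to 0.276). The other 8 did not pass, and their values ran from -0.33 for Mir3070a to -1.21 for Mir376c. Single libraries moved them, since Mir376c was at -2.30 without 5 h replicate 1, while Mir666 turned positive when 5 h replicate 2 was left out (0.14) and was at -1.32 when 5 h replicate 1 was. The 9 lie in the same transcribed domain and are not independent of each other. Of 77 tested miRNA genes elsewhere, 13 rose and 0 fell, with a median of 0.92, and their direction can be partly set by the filter too. Tested genes shorter than 5 kb had a median of 0.49, and 32.2% of them rose and 4.68% fell. The shares over all tested genes were 22.0% and 21.2%.

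Summed over stretches of the domain, small RNA genes were lower at 5 h in every stretch that had more than 2 counts in a library. The 15 miRNA genes between Meg3 and Rian summed to 5.32 and 4.32 CPM in the 5 h libraries and 7.31 and 7.76 CPM in the 0 h libraries (log2 ratio -0.64). The 8 small RNA genes within Rian summed to 1.31 and 0.973 CPM at 5 h and 2.78 and 3.18 CPM at 0 h (-1.38). In both stretches the 5 h libraries lay below the 0 h libraries. The 38 between Rian and Mirg, the largest group, summed to 11.4 and 7.57 CPM at 5 h and 15.4 and 16.3 CPM at 0 h (-0.74). The 10 within Mirg summed to 1.59 and 1.84 CPM at 5 h and 3.60 and 3.56 CPM at 0 h (-1.06). Mirg itself was at -1.03, but these 10 may share reads with it, so the 2 values cannot be taken as independent. The values did not fall steadily with distance from the Meg3 start, because the stretch within Rian was lower than the one after it, on sums of 9 to 54 counts in a library. The snoRNA genes alone differed little (2.42 and 1.73 CPM at 5 h, 2.06 and 2.67 CPM at 0 h), and their libraries overlapped. No test was made on the sums.

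**Figure D3:**
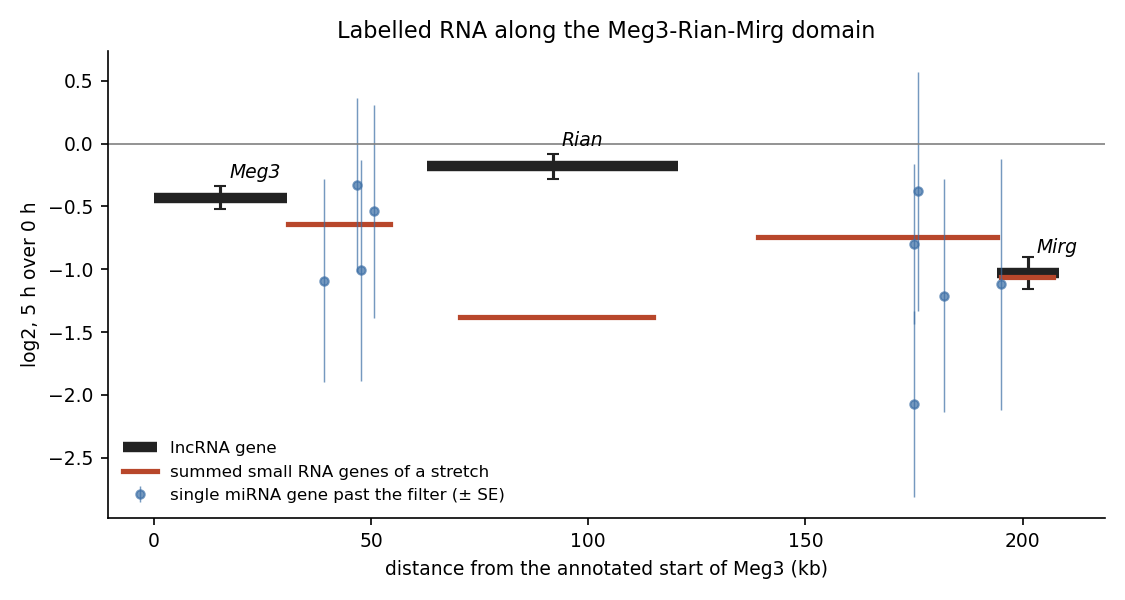
Log2 change in labelled RNA, 5 h over 0 h, against distance in kb from the annotated Meg3 start. Black bars are the 3 long non-coding genes (± SE), red lines the summed small RNA genes of a stretch and blue points the 9 single miRNA genes that passed the filter (± SE). The stretch within Meg3, with 2 counts in each library, is not drawn. The 3 long genes lie below 0, with Rian at -0.18 nearest to it and Mirg at -1.03 farthest.

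The domain's protein-coding genes Dlk1, Rtl1 and Dio3 had low levels, and of these only Dio3 was tested. Dlk1, a Delta-like inhibitor of adipocyte differentiation that ends 77.7 kb before Meg3, had 0 and 9 counts in the 5 h libraries and 3 and 3 counts in the 0 h libraries. These values overlap and were too low to test. Rtl1, a retrotransposon-derived gene that runs antisense to the transcript, was at 0 in every library, which allows up to 0.207 and 0.324 CPM at 5 h and 0.154 and 0.382 CPM at 0 h (3 counts, counting error only). Dio3, the deiodinase that inactivates thyroid hormone, lies 530 kb beyond Mirg and rose (6.70 and 6.92 CPM at 5 h and 0.669 and 1.78 CPM at 0 h, log2 2.62 ± 0.49, edgeR adjusted p = 0.00154). Without 0 h replicate 1 its value was 1.93 and without 0 h replicate 2 it was 3.33.

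Of 10 listed genes in and beside the Dlk1-Dio3 domain, 7 were tested, and 5 rose and 0 fell by edgeR. Over all tested genes 22.0% rose and 21.2% fell, and the list was chosen with earlier results of these data known. Yy1, a zinc finger transcription factor, rose by 1.14 ± 0.09 on the log2 scale (481 and 526 CPM at 5 h and 237 and 221 CPM at 0 h). Under mitochondrial scaling Yy1 was at 0.28 and not called (adjusted p = 0.127). The median of the 7 was 1.14. Besides Dio3 and Yy1 the strongest call was Slc25a47, a mitochondrial carrier gene of liver, at 3.13 ± 0.33. Without 0 h replicate 1 the value of Slc25a47 was 3.88. By DESeq2 and by limma-voom these 3 genes also rose. Scaled by library totals, 3 of the 7 were called higher and 1 lower (13.2% and 30.3% of all tested genes). Under mitochondrial scaling 2 were called in each direction (2.28% higher and 51.2% lower of all tested genes).

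Kcnq1ot1, on chromosome 7 from 143213111 to 143296547, spans 83.4 kb inside Kcnq1. It had 805 and 843 CPM in the 5 h libraries and 901 and 912 CPM in the 0 h libraries. The 5 h libraries lay just below the 0 h libraries. Its log2 fold change was -0.14 ± 0.08 and did not pass (edgeR adjusted p = 0.194). The 1933 tested genes of 50 to 100 kb had a median of -0.28, and 36.2% of them fell. Kcnq1, the potassium channel gene that Kcnq1ot1 runs through, had 5 and 6 counts at 5 h and 22 and 12 counts at 0 h, and its value of -1.42 ± 0.88 did not pass (adjusted p = 0.221). The sources used here do not give the strand setting of the counting, so reads of this overlapping pair cannot be told apart.

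Cdkn1c, the cell cycle inhibitor p57 that the paternal Kcnq1ot1 is known to silence, rose (6.08 and 8.86 CPM at 5 h and 3.35 and 2.54 CPM at 0 h, log2 1.30 ± 0.35, edgeR adjusted p = 0.0124). The log2 ratio of Kcnq1ot1 to Cdkn1c counts was 7.04 and 6.56 in the 5 h libraries and 8.06 and 8.45 in the 0 h libraries, lower by 1.45 at 5 h on the log2 scale (exact permutation p = 0.333, the smallest possible). Cdkn1c spans 2.72 kb, and for tested genes shorter than 5 kb (3031 of them) the median change was 0.49. Its call was lost without 0 h replicate 2 (1.14, adjusted p = 0.0612), without 5 h replicate 2 (1.03, adjusted p = 0.0709) and with mitochondrial scaling (0.44). Of 19 listed genes in and beside the Kcnq1ot1 and H19-Igf2 domains, 14 were tested, 3 rose and 2 fell, with a median of -0.05. The shares over all tested genes were 22.0% and 21.2%. With mitochondrial scaling 1 rose and 8 fell, against 2.28% and 51.2% of all tested genes. Ascl2, a transcription factor needed in the placenta, rose (2.06 ± 0.41), while Tspan32, a tetraspanin gene of blood cells, and Tnfrsf22, a decoy receptor gene, fell by 1.23 and 0.63 on the log2 scale.

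H19, a maternally expressed non-coding RNA gene, was at 0 counts in all 4 libraries. Igf2, the growth factor gene 72.6 kb from H19, had 18 and 7 counts in the 5 h libraries and 0 and 0 counts in the 0 h libraries. Both 5 h libraries had counts and neither 0 h library did. Its 5 h mean of 1.00 ± 0.344 CPM (SD, n = 2) was at least 3.73-fold higher than the mean floor of 0.268 CPM that 3 counts per library set at 0 h. Igf2 did not pass the low-count filter. No p is given, because it could pass a filter only through the group in which it was high. In counts made from coverage 1 fragment can give several counts, so these few counts may be fewer fragments. The overlapping non-coding gene Igf2os had 4 and 0 counts at 5 h and 12 and 0 counts at 0 h. Without strand, reads of Igf2 and Igf2os cannot be told apart, and the fold above leaves Igf2os out.

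Peg3, a paternally expressed zinc finger gene on chromosome 7 from 6703892 to 6730462, had 97.5 and 91.0 CPM in the 5 h libraries and 120 and 130 CPM in the 0 h libraries. The groups did not overlap. Of the 3761 tested genes of 20 to 50 kb, the class of Peg3 (26.6 kb), 31.5% fell, with a median of -0.21. Peg3 fell by 0.40 on the log2 scale (SE 0.10, edgeR adjusted p = 0.00928). Without 0 h replicate 2 the call was lost, at -0.35 with adjusted p = 0.123.

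Peg10, a paternally expressed gene that derives from a retrotransposon and is needed for the placenta, spans 13.2 kb of chromosome 6 from 4747306 to 4760517. It had 239 and 256 CPM in the 5 h libraries and 119 and 130 CPM in the 0 h libraries. The 5 h level was about the same in both libraries and lay above both 0 h values. The means were 247 ± 12.3 CPM at 5 h and 125 ± 7.61 CPM at 0 h (SD, n = 2 each), a log2 fold change of 0.99 ± 0.10 or 1.99-fold (edgeR adjusted p = 4.44e-05), and 88.7% of tested genes had a lower value. Scaled to mitochondrial RNA the value was 0.14 (adjusted p = 0.501), not past the threshold.

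Sgce, a sarcoglycan gene whose annotated span lies 102 bases from that of Peg10, had 1.73 and 1.84 CPM at 5 h and 3.55 and 4.07 CPM at 0 h. Its value of -1.09 ± 0.44 did not pass (adjusted p = 0.0670), but it did with library totals (-1.35, adjusted p = 0.0279) and with mitochondrial scaling (-1.93, adjusted p = 0.00368). The log2 ratio of Peg10 to Sgce counts was 7.08 and 7.08 in the 5 h libraries and 5.06 and 4.97 in the 0 h libraries. The ratio was higher at 5 h by 2.07 on the log2 scale, 4.18-fold, on Sgce counts of 17 to 69 (exact permutation p = 0.333, the smallest possible). Sgce spans 72.9 kb.

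Grb10, which encodes an adaptor that restrains insulin and growth factor signalling and is the longest member (107 kb, chromosome 11 from 11930499 to 12037428), had 59.0 and 58.1 CPM in the 5 h libraries and 43.5 and 42.6 CPM in the 0 h libraries. The groups did not overlap and replicates differed by less than 1 CPM. It rose by 0.44 ± 0.12 on the log2 scale (edgeR adjusted p = 0.0132), whereas the 1716 tested genes over 100 kb had a median of -0.29, with 9.27% higher and 29.8% lower. The call was lost with library totals (0.18, adjusted p = 0.276) and without either 0 h library, and with mitochondrial scaling the value was -0.40 (adjusted p = 0.113).

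Of 19 listed genes beside Peg3, Peg10 and Grb10, 12 were tested, 1 rose and 5 fell, with a median of -0.82. The shares over all tested genes were 22.0% and 21.2%. With library totals 0 rose and 7 fell, against 13.2% and 30.3% of all tested genes. Fignl1, a DNA repair ATPase gene near Grb10, fell to 74.4 and 78.3 CPM at 5 h, against 200 and 193 CPM at 0 h (log2 -1.36 ± 0.10, edgeR adjusted p = 1.06e-05). Ddc, which makes dopamine and serotonin, fell by 1.13 and Ppp1r9a, which encodes the actin-binding protein neurabin, by 0.55 on the log2 scale.

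The values depended on how libraries were scaled, as the plot of 3 scalings shows, and for Grb10 the direction did too. TMM put the median gene at -0.02, library totals at -0.28 and scaling to mitochondrially encoded RNA at -0.86, and that RNA made up 6.03% and 7.17% of the 5 h libraries and 4.41% and 4.34% of the 0 h libraries. With library totals 1 member rose and 5 fell (13.2% and 30.3% of all tested genes), and with mitochondrial scaling 0 rose and 5 fell (2.28% and 51.2%). Meg3, Rian, Mirg, Kcnq1ot1 and Peg3 were below 0 with TMM, and the other scalings only lowered values further. A scaling shifts all genes by about the same amount, so the order of the 7 was set in advance. Mirg was lowest and Peg10 highest, and the scalings are no separate support for this.

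**Figure D4:**
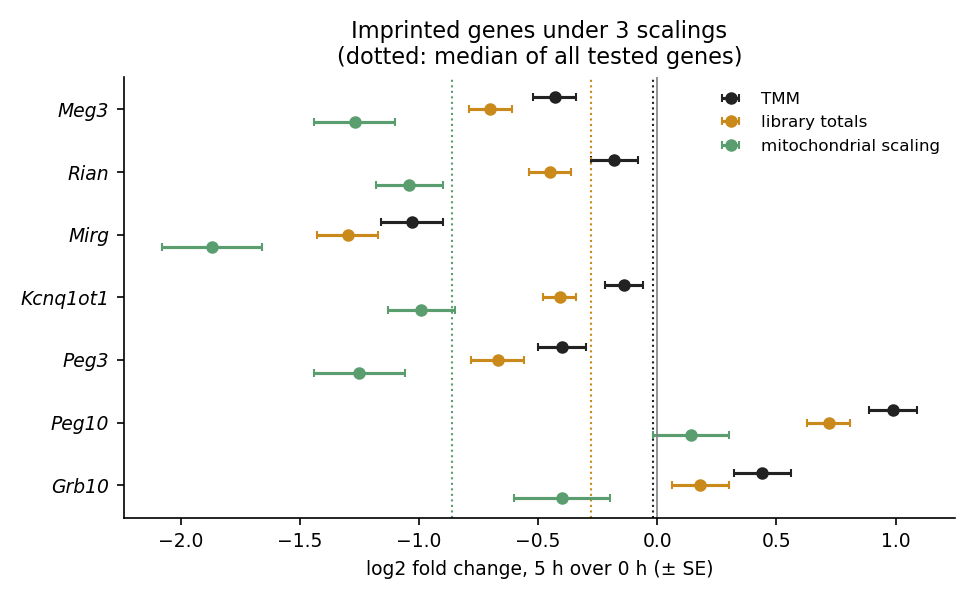
Log2 fold change (5 h over 0 h, ± SE) of the 7 tested members with TMM (black), library totals (orange) and mitochondrial scaling (green), with dotted lines at the median of all tested genes (-0.02, -0.28 and -0.86). Grb10 is at 0.44, 0.18 and -0.40.

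Genes listed as imprinted at other domains moved both ways. Of these 42 genes, 30 were tested, 8 rose and 3 fell, with a median of 0.04 (22.0% and 21.2% of all tested genes rose and fell). Whether each is imprinted in these cells was not measured. The split turned with library totals (5 rose and 10 fell), as did the shares over all tested genes (13.2% and 30.3%). It turned further with mitochondrial scaling (1 rose and 20 fell, against 2.28% and 51.2% of all tested genes). Gnas, which encodes the stimulatory G protein subunit, rose to 83.1 and 78.0 CPM at 5 h, against 38.6 and 39.4 CPM at 0 h (log2 1.05 ± 0.12, edgeR adjusted p = 8.98e-05). Commd1, a copper homeostasis gene, rose by 1.44 ± 0.21, and Tsix, the antisense RNA of the X inactivation centre, by 1.35 ± 0.09, and without strand its reads cannot be told from those of Xist. Under mitochondrial scaling the calls of Gnas (0.21, adjusted p = 0.419) and Commd1 (0.59, adjusted p = 0.0711) were lost.

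Of 21 genes known to read, write or keep imprints, all were tested, 8 rose and 5 fell, with a median of 0.08. The shares over all tested genes were 22.0% and 21.2%. With library totals 5 rose and 8 fell (13.2% and 30.3% of all tested genes). With mitochondrial scaling 0 rose and 14 fell (2.28% and 51.2%). Ehmt2, a histone H3 lysine 9 methyltransferase, rose by 1.25 ± 0.14, Trim28, the corepressor that ZFP57 recruits, by 0.91 ± 0.10 and Setdb1, another histone methyltransferase, by 0.72 ± 0.09, while with mitochondrial scaling none of the 3 passed and Setdb1 was at -0.13. Zfp57 itself, named after its values were seen, fell by 0.51 on the log2 scale (393 and 424 CPM at 5 h and 583 and 579 CPM at 0 h, edgeR adjusted p = 0.000808). Of 26 listed long non-coding RNAs, which include the members Meg3, Rian, Mirg, H19 and Kcnq1ot1, 22 were tested. Of these 6 rose and 8 fell (22.0% and 21.2% of all tested genes), with a median of -0.18. With library totals 5 rose and 12 fell (13.2% and 30.3%). Besides Tsix, the snoRNA host Gas5 (1.33 ± 0.09) and Epb41l4aos (1.67 ± 0.15), which lies opposite Epb41l4a, rose.

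**Figure D5:**
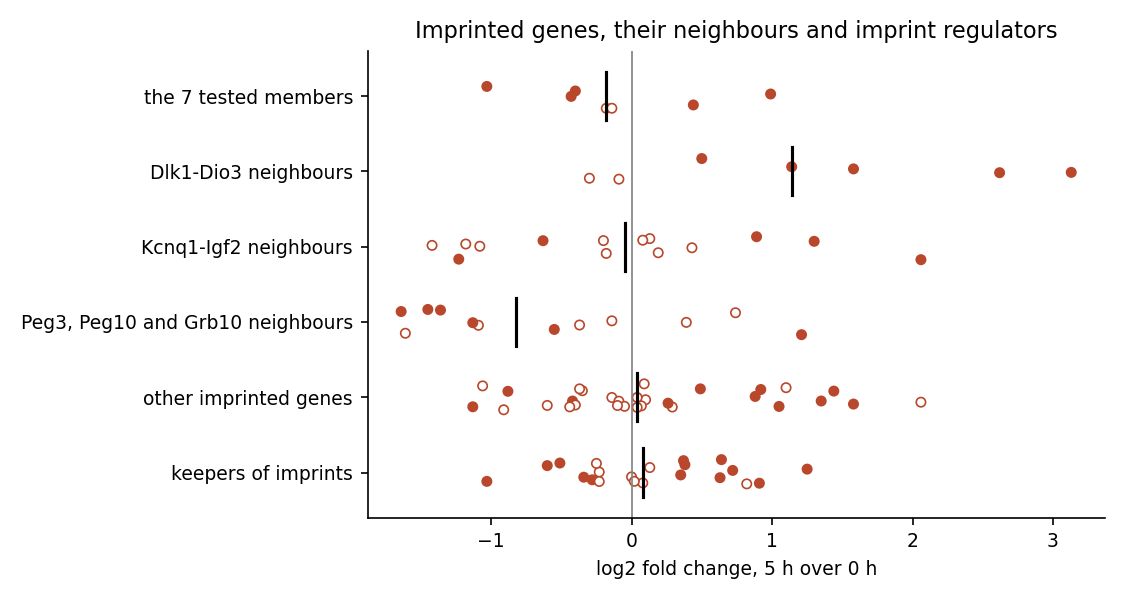
Log2 fold change (5 h over 0 h) of single tested genes in each list, with filled points for genes past the threshold, open points for the rest and a black line at the median. The medians are -0.18 for the members, 1.14 for the Dlk1-Dio3 neighbours, -0.05 for the Kcnq1-Igf2 neighbours, -0.82 for the neighbours of Peg3, Peg10 and Grb10, 0.04 for other imprinted genes and 0.08 for keepers of imprints.

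The genes whose levels over the 4 libraries lay closest to those of Meg3, by Euclidean distance of centred log2 CPM, were Acaca, a fatty acid synthesis enzyme gene (log2 -0.44), Gpt2, a mitochondrial transaminase gene (-0.44), and Cnot10, of the CCR4-NOT complex (-0.43). The call of Gpt2 was lost without either 0 h library (adjusted p = 0.0926 and 0.0617) and that of Cnot10 without 0 h replicate 2 (0.0602). None is imprinted in the lists used here. Within a distance of 0.1 there were 140 of 9984 genes compared.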

How the data were processed

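RNA labelled with 4sU was biotinylated with biotin-HPDP and caught on streptavidin beads, per the labels' protocols. The build was mm10, and the tools named in the submitters' processing notes are DESeq2 1.42.0, StringTie 2.2.1 and HISAT2 2.2.1, with no word on which made the table. The deposited values were treated as estimated counts, per the file headers in the layout of StringTie's export. They are whole, so rounding changed nothing. The annotation and the strand setting are not stated there, and overlapping genes cannot be told apart.

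Genes were filtered by filterByExpr (17344 of 55401 left) and fitted in edgeR 4.0.16 with TMM and the robust form of its quasi-likelihood test (5 h minus 0 h), without a replicate block. SE is the log2 fold change divided by the root of F. The fit was tested on simulated data. Same-numbered libraries deviated together at r = 0.0505, so the number was not taken as a pairing. Alternatives used limma 3.58.1, DESeq2 1.42.0, other scalings and filters, and each library left out. Ratios used counts plus 0.5, and all sums and medians are descriptions. Positions and sequences were matched by symbol to RefSeq (39082 genes by symbol, 163 by synonym, 16156 not matched). All 60 miRNA genes of the domain matched a mature sequence.

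Members and lists were chosen with earlier results of these data known. All members are named, with the 3 genes of lowest adjusted p in each other list (the 2 of highest CPM where none passed), the miRNA genes of the domain past the filter and the ratio partners. For a floor, 3 counts per library were used (0.207 and 0.324 CPM at 5 h, 0.154 and 0.382 CPM at 0 h), covering counting error only.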

Additional observations from a re-analysis of the deposited data

How the results depend on the processing

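Over 13 alternatives, Meg3 (-1.27 to -0.40) and Mirg (-1.87 to -0.89) kept their direction and their side of the threshold. Scaling changed the counts. With library totals 2297 genes rose, against 3814 with TMM, and among the members 1 rose and 5 fell. With mitochondrial scaling 396 genes rose and 8872 fell, and 0 members rose and 5 fell. Dropping some of the libraries let Igf2 past the filter although it had 0 counts at 0 h, so members past the threshold are not counted for those fits. Whichever library was dropped, the value of Grb10 stayed between 0.43 and 0.47. Its SE reached 0.21, against 0.12 with all libraries. Over all genes, leaving out a library gave 2721 to 3765 higher and 2609 to 3834 lower. Rian passed with library totals (-0.45), mitochondrial scaling (-1.04) and without 5 h replicate 2, and Kcnq1ot1 with both scalings (-0.41 and -0.99). With mitochondrial scaling the sign turned for Grb10 (-0.40), Klf4 (-0.22), Setdb1 (-0.13) and Thy1 (-0.52), which that scaling lowers like all genes. With a replicate block 2 members rose and 3 fell and, of the named genes, the call of Mir679 was lost (adjusted p = 0.0893) and no other changed (Mirg -1.04, Peg10 0.99). Without a library the value of Mir666 ran from -1.32 to 0.14, where the sign turned without 5 h replicate 2. With no filter 3 members were called higher, Igf2 included, which had 0 counts at 0 h. The ratio of Peg10 to Sgce differed by 1.92 with a pseudocount of 5 counts, against 2.07 with 0.5, since Sgce had few counts. Without each library in turn the ratio differences ran from 0.12 to 0.36 for Rian/Meg3, -0.76 to -0.47 for Mirg/Meg3, -1.12 to -0.59 for Mirg/Rian, -1.69 to -1.22 for Kcnq1ot1/Cdkn1c and 2.02 to 2.11 for Peg10/Sgce. Ratios of Dlk1 to Meg3 and of H19 to Igf2 are not given, because Dlk1 and H19 were at or under 3 counts in libraries of both groups. Among alternatives added after seeing the data, miRNA genes alone gave -1.73 within Rian. Depth limits what can be said of genes with few counts, among them Dlk1, H19, Igf2, Rtl1, Kcnq1, Sgce and the small RNA genes.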
